A study of Mus musculus with 32 samples.

Results

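The genes described here are the nuclear-encoded genes of the mitochondrial respiratory chain and ATP synthase in mouse amygdala and hippocampus. They were taken by symbol from the protein-coding genes of GENCODE M21 (symbols that begin with Ndufa, Ndufb, Ndufc, Ndufs, Ndufv, Uqcr, Cox4 to Cox8 or Atp5, and the 4 genes Sdha to Sdhd), and 93 such genes were present in both gene tables, out of 53715 genes. Symbols alone decided which genes belong, and no measured value was used. The prefix also takes in 8 assembly factors of complex I (Ndufaf genes), which build the complex without being part of it, and 8 tissue isoforms, which are paralogues of a common subunit best known from other organs. By complex, 44 of the genes belonged to complex I, 4 to complex II, 8 to complex III, 20 to complex IV and 17 to complex V.

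RNA was sequenced from 4 groups of adult male mice, aged 4.5 to 8 months, with 4 animals per genotype: wild type (WT), Kmt2a heterozygotes (Kmt2a-HET), Kdm5c hemizygous knockouts (Kdm5c-KO) and double mutants (DM) that carried both alleles. KMT2A writes and KDM5C removes methylation of histone H3 lysine 4, a mark of active promoters. All animals, WT included, were F1 hybrids of 129S1/SvImJ Kmt2a+/- males and C57BL/6J Kdm5c+/- females. The Kmt2a allele lacked exons 8 and 9 after Cre recombination and was carried in every cell, and the Kdm5c allele lacked exons 11 and 12. Both regions came from the same 16 mice, which gave 32 libraries made with an oligo-dT kit.

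The respiratory chain passes electrons from NADH (complex I) and succinate (complex II) through complex III to complex IV, which reduces oxygen, and the proton gradient built on the way drives ATP synthesis at complex V. Neurons depend on this pathway for the ATP that restores ion gradients after firing. A small set of subunits of complexes I, III, IV and V is encoded in mitochondrial DNA, whereas the genes described here are transcribed in the nucleus and their proteins imported. Complex II is the exception, with all of its subunits encoded in the nucleus.

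Amygdala libraries held 19215503 to 26033615 gene counts each, and hippocampus libraries 19322262 to 27798980. Counts of whole genes did not separate the genotypes for Kmt2a (chr9:44803355-44881296, mm10), at 3547 to 4613 normalised counts in Kmt2a-HET and 2163 to 5639 in WT amygdala, and these totals include the exons that the allele keeps. Kdm5c was at 1248 to 1434 normalised counts in Kdm5c-KO and 1227 to 2026 in WT amygdala, which overlap, and at 1145 to 1355 and 1426 to 1888 in the hippocampus, which do not. The summed markers of neurons (7 genes) were at 2800 to 3968 CPM (counts scaled to the library total) in amygdala libraries, against 4023 to 5636 for hippocampus. The 3 dentate gyrus markers summed to 18.6 to 62.2 CPM in amygdala libraries, against 95.2 to 457 for hippocampus. Technical measures that differed among libraries are set beside the results that they touch. One is the slope of each library's counts on gene length relative to the other libraries of the region, which was negative in each of the libraries numbered 1 (-0.191 to -0.058 in the amygdala, -0.133 to -0.0642 in the hippocampus). The other is the summed level of 5 choroid plexus markers, which reached 1719 CPM in DM amygdala library 1 and 4399 CPM in Kdm5c-KO hippocampus library 1, against medians of 17.95 and 157 over the libraries of each region.

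Promoter windows from RefSeq (GRCm38.p6, 250 bases before to 50 after the start of the gene) were at hand for 74 of the 93 genes, with 79 windows in all. Promoters of this gene family are known as rich in CpG and in sites for the nuclear respiratory factors, so 4 motifs were counted on both strands. The NRF1 motif CGCATGCG was in 11 of the 79 windows (13.9%) against 1.87% of all 32851 windows. The YY1 motif AAGATGGC was in 10 windows (12.7%) against 2.75%, the GABPA motif CCGGAAGT in 5 (6.33%) against 3.89%, and the E-box CACGTG in 6 (7.59%) against 7.15%. For 49 of the windows, no window of the same gene held any of the 4. The median number of CpG dinucleotides was 19 per window, against 7 over all windows. A match describes these letters alone and shows no binding.

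The windows of 4 complex IV genes follow, 5′ to 3′ on the strand of the gene, with motif matches in capitals. Cox6a1 was the highest expressed gene of its complex and shows an NRF1 match among 32 CpG, Cox6b1 and Cox6b2 are the common and the tissue isoform of 1 subunit with 17 and 10 CpG, and Cox7a2, with 20 CpG, had the lowest unadjusted p of the 93 genes in both Kmt2a-HET comparisons. The last 3 windows held none of the 4 motifs.
Cox6a1, chr5:115348909-115349208, minus strand: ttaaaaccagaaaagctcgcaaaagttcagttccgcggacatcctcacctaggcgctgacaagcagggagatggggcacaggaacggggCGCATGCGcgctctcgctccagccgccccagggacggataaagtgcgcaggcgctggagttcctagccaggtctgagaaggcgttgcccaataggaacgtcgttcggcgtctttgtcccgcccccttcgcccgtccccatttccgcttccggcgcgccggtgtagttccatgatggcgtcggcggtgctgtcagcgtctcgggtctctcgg
Cox6b1, chr7:30626065-30626364, minus strand: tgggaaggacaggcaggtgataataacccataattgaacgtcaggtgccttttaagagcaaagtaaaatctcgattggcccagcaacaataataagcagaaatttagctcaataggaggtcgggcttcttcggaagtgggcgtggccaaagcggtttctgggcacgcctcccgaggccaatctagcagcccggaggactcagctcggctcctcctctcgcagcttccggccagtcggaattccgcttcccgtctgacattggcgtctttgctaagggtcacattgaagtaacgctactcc
Cox6b2, chr7:4753045-4753344, minus strand: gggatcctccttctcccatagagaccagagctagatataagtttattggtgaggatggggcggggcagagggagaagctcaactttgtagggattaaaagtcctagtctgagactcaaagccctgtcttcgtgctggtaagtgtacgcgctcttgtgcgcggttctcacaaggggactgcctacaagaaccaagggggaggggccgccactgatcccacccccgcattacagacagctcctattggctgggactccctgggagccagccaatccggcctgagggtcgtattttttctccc
Cox7a2, chr9:79759804-79760103, minus strand: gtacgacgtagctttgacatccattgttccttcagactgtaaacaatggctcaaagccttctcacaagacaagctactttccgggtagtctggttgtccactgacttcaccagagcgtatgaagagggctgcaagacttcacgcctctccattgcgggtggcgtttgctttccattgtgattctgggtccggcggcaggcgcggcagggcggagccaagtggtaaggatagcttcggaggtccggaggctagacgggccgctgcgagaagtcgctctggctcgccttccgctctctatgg

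Levels were compared between genes as TPM, which correct for transcript length and library total. Atp5b, the catalytic beta subunit of ATP synthase, was the highest of the 93 genes, with a mean of 1902 TPM in the amygdala (1558 to 2062 over 16 libraries) and 1816 in the hippocampus (1626 to 1989). Complex IV followed with Cox6a1 (means of 1675 and 1782 TPM) and Cox4i1 (1533 and 1388). The highest genes of the other complexes were Ndufb8 for complex I (445 and 385 TPM), Sdha, the flavoprotein that oxidises succinate, for complex II (395 and 361), and Uqcr11, the smallest subunit of complex III (391 and 408).

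Among the structural genes, the spread within a complex was wide. Without assembly factors and tissue isoforms, mean levels in the amygdala ran from 60.1 to 445 TPM over 36 genes of complex I (median 188), from 85.5 to 395 over complex II (136), from 147 to 391 over complex III (275), from 139 to 1675 over 12 genes of complex IV (427) and from 19.8 to 1902 over complex V (283). The lowest gene of complex V was Atp5s, which is not a structural subunit. The 8 assembly factors of complex I lay lower, at 13.6 to 43.7 TPM in amygdala libraries, and 12.1 to 38.5 for hippocampus. These values are levels and carry no test between genes.

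**Figure D1:**
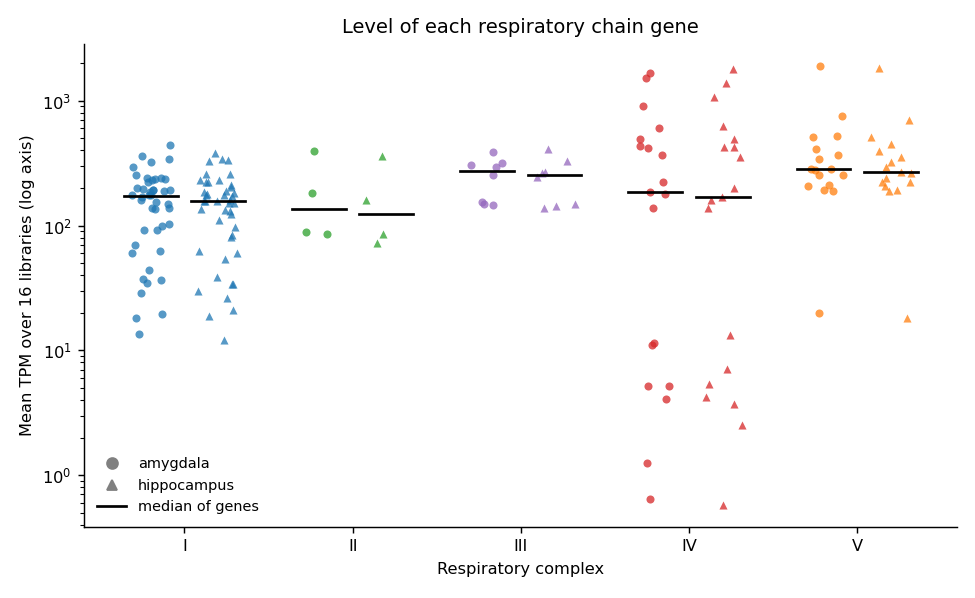
Mean TPM of each respiratory chain gene over 16 libraries (log axis) by complex, with circles for the amygdala, triangles for the hippocampus and a bar at the median of the genes of a complex. Atp5b of complex V is highest at 1902 and 1816 TPM, the lower cloud of complex IV holds the tissue isoforms, and genes at 0 (Cox8c) have no place on the log axis.

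The 8 tissue isoforms were far below their common paralogues. Cox8b, the form of a small complex IV subunit known from heart and skeletal muscle, was at 1.26 TPM in the amygdala against 916 for Cox8a, a ratio of 727, and Cox8c was listed at 0 in every library. Cox4i2, the form known from lung and low oxygen, was at 4.07 TPM against 1533 for Cox4i1, and Cox6a2, a muscle form, at 11.1 against 1675 for Cox6a1. Cox6b2, known from testis, stood nearest to its paralogue, at 11.5 TPM against 368 for Cox6b1, a ratio of 32. The remaining forms, Cox7a1, Cox7b2 and Ndufa4l2, were at 5.18, 0.65 and 5.16 TPM in the amygdala, where Cox7a2, Cox7b and Ndufa4 were at 177, 139 and 420. The 3 genes for the c subunit of ATP synthase, which give the same mature protein, were by contrast close to each other, with 510 TPM for Atp5g3, 283 for Atp5g1 and 256 for Atp5g2 in the amygdala.

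The transcript tables split the counts of 18 of the 93 genes over at least 2 transcripts with 10% or more in both regions. Ndufv3, an accessory subunit of complex I with a short and a long form, had a median of 66.8% of its counts on the short transcript Ndufv3-202 (493 bases) in amygdala libraries and 70.3% in hippocampus libraries, against 31.7% and 27.4% on Ndufv3-201 (1582 bases). Group means of the short form ran from 64.4% in DM to 69.2% in WT amygdala, and from 67.8% in WT to 73.3% in Kdm5c-KO hippocampus. For Sdhc, a membrane anchor of complex II, the longer transcript Sdhc-202 took 60.3% and 59.6%. The short Atp5g1-202 took 68.7% and 67.6%. These shares come from the estimates in the deposited tables and were not tested.

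The first question was whether loss of 1 Kmt2a copy, of Kdm5c, or of both changed the expression of the respiratory chain genes. At an adjusted p under 0.1 (DESeq2, over all genes tested), 0 of the genes were called in each of the 10 genotype comparisons, and edgeR called 0 in each as well. Fold changes and tests of the members are given below for each comparison, beside the share of all genes that the same test called. Since whole tissue was sequenced, fewer cells of a type and less RNA per cell cannot be told apart in any of these values. The comparisons against WT share the WT libraries, and those of DM share the DM libraries.

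In the amygdala, 92 of the 93 genes were tested in 4 of the 5 comparisons and 91 in Kdm5c-KO against WT. For Kmt2a-HET against WT, 0 were called against 0.00329% of all genes, 1 was under an unadjusted p of 0.05 with either tool (1.09% of members, 3.05% of all genes), and the median log2 fold change was 0.00 against -0.00 over all genes. Kdm5c-KO against WT called 0 members against 0.756% of all genes, with 0 under an unadjusted p of 0.05 (6.11% of all genes) and medians of 0.01 and -0.01. Same-numbered libraries deviated together in that comparison, and with the replicate number as a block 0 members and 507 genes in all were called, against 144 without it. For DM against WT, 0 were called against 0.99% of all genes, 1 was under an unadjusted p of 0.05 (1.09%, against 6.92% of all genes), and the medians were -0.03 and -0.01. DM compared with the single mutants gave 0 called against 0.00329% of all genes for Kdm5c-KO and 0 against 0.805% for Kmt2a-HET, with 0 and 1 genes under an unadjusted p of 0.05 (2.29% and 6.93% of all genes) and a median of -0.03 in both.

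The hippocampal medians lay further from 0. For Kmt2a-HET against WT, 0 of 92 genes tested were called against 0% of all genes, 1 was under an unadjusted p of 0.05 (1.09%, against 2.4% of all genes), and the median log2 fold change was -0.03. In Kdm5c-KO against WT, 0 were called against 1.01% of all genes. An unadjusted p under 0.05 was found for 5 (5.43%, against 8.58% of all genes), which were Cox6b2, Ndufaf6, Cox8b, Ndufaf5 and Atp5g1, all with higher means in Kdm5c-KO. In this comparison 80 of the 92 fold changes were positive and the median was 0.07 against -0.00 over all genes. In DM against WT, 0 were called against 0.881% of all genes, 1 was under an unadjusted p of 0.05 (Ndufs6; 1.09%, against 8.24% of all genes), 80 fold changes were negative and the median was -0.09 against 0.00. The slope of counts on gene length was -0.0646, 0.13, -0.0564 and -0.00936 in WT hippocampus libraries 1 to 4, and ran from -0.133 to 0.0261 in Kdm5c-KO and from -0.0642 to 0.105 in DM. With offsets for length and GC, the median of the genes was 0.02 in Kdm5c-KO against WT, with Cox6b2 called, and -0.09 in DM against WT, with 0 called. The part of length in both shifts was not tested beyond these offsets. For DM against Kmt2a-HET, 0 were called against 0.606% of all genes, 0 were under an unadjusted p of 0.05 (5.39% of all genes) and the median was -0.06 against -0.02.

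Of the 10 comparisons, the median lay furthest from 0 between the 2 groups that lack Kdm5c. In DM against Kdm5c-KO hippocampus, 0 of 92 genes were called against 0.0067% of all genes. An unadjusted p under 0.05 was found for 10 (10.9%), against 4.53% of all genes tested, and edgeR also gave 10. That 4.53% was taken over 29841 genes, against 19302 in Kdm5c-KO against WT, so it cannot be ranked beside the shares of the other comparisons. The median log2 fold change was -0.17 against 0.00 over all genes, and 90 of the 92 values were negative. By complex, the median was -0.17 for complex I (43 of 44 negative), -0.05 for complex II (4 of 4), -0.22 for complex III (8 of 8), -0.24 for complex IV (18 of 19) and -0.14 for complex V (17 of 17). The genes were measured in the same libraries, so these signs are not independent observations.

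**Figure D2:**
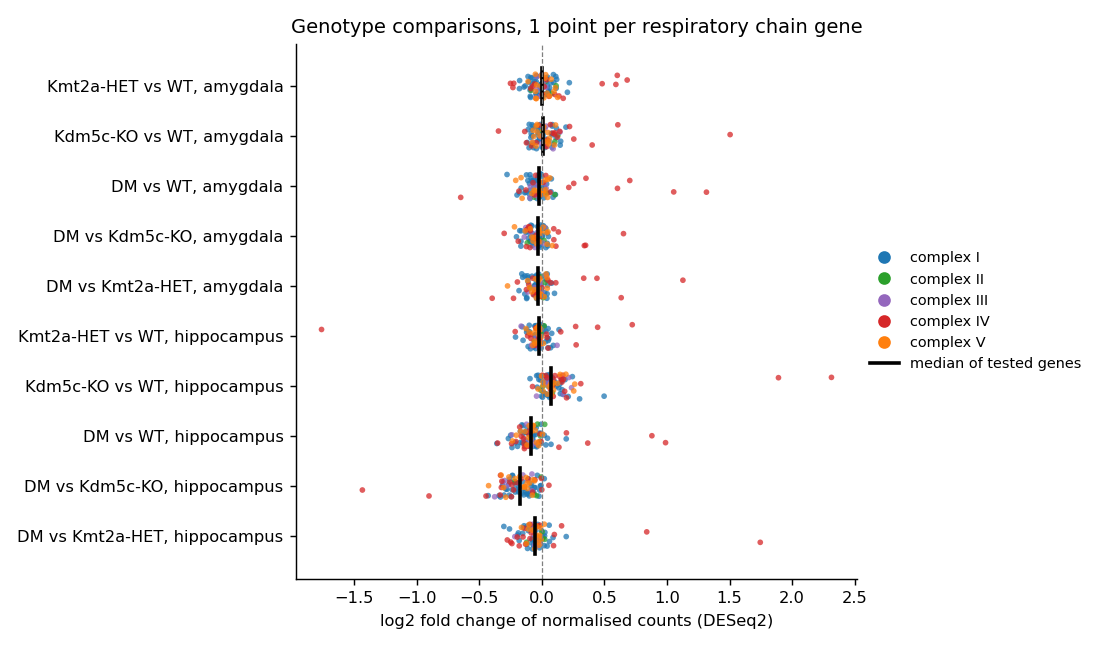
Log2 fold change (DESeq2) of each respiratory chain gene, 1 point per gene coloured by complex, in the 10 genotype comparisons, with a bar at the median of the genes tested. The medians lie between -0.03 and 0.01 in the amygdala, and at 0.07 for Kdm5c-KO against WT and -0.17 for DM against Kdm5c-KO in the hippocampus. The points far from 0 are tissue isoforms of complex IV.

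Slopes on gene length also differed among these libraries. The genes have a median exon length of 1569 bases, against 4807 for the 12047 genes with a mean of at least 100 normalised counts, at a like GC content (50% and 49.9%). The slope of counts on gene length was -0.133, 0.0261, -0.0294 and -0.0226 in Kdm5c-KO hippocampus libraries 1 to 4, and -0.0642, 0.105, 0.00906 and 0.0901 in DM libraries 1 to 4. With offsets for length and GC the median of the genes became -0.10, with 8 genes under an unadjusted p of 0.05 and 0 called. Without the libraries numbered 1, it was -0.16, with 6 under an unadjusted p of 0.05 and 0 called (an alternative chosen after seeing the data). The part of length in the shift was not tested beyond the offsets, which took length and GC together.

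Ndufaf5, which modifies the core subunit Ndufs7 during assembly of complex I (chr2:140170649-140203689, mm10), had the lowest p in that comparison. Its normalised counts were 379, 338, 398 and 391 in Kdm5c-KO hippocampus libraries 1 to 4 (mean 376 ± 26.8, SD, n = 4) and 319, 263, 324 and 326 in DM (308 ± 30.3), so that the groups did not overlap. WT had 303, 300, 309 and 357, at the level of DM. The log2 fold change of DM against Kdm5c-KO was -0.29 ± 0.11 (SE; DESeq2 adjusted p = 0.936, unadjusted p = 0.00942).

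Ndufa1, an accessory subunit of complex I encoded on chromosome X like Kdm5c, was at 1019, 745, 793 and 722 normalised counts in Kdm5c-KO hippocampus and at 626, 597, 693 and 518 in DM. These groups did not overlap either, and the log2 fold change was -0.43 ± 0.18 (SE; DESeq2 adjusted p = 1). Ndufaf5 and Ndufa1 were named for the lowest p of the comparison, so their lack of overlap is not separate evidence. Ndufs8, a core subunit that carries iron-sulphur clusters, was at 949, 742, 879 and 702 in Kdm5c-KO, 755, 570, 671 and 582 in DM, and 830, 613, 884 and 780 in WT. All of these groups overlapped. Its log2 fold change was -0.34 ± 0.14 (SE) against Kdm5c-KO, -0.27 ± 0.14 against WT and -0.26 ± 0.14 against Kmt2a-HET, with DESeq2 adjusted p of 1, 0.666 and 1.

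The other genes under an unadjusted p of 0.05 in DM against Kdm5c-KO were Ndufv3, Ndufc1 and Ndufc2 of complex I, Uqcr11 of complex III, Ndufa4 of complex IV, and Atp5d and Atp5g1 of complex V. Their log2 fold changes lay between -0.38 (Uqcr11) and -0.26 (Ndufc1), with a DESeq2 adjusted p of 1 for each. Atp5g1 had 3202, 2367, 2691 and 2408 normalised counts in Kdm5c-KO, 2293, 1938, 2471 and 2029 in DM, and 2416, 1786, 2541 and 2151 in WT, with library 1 the highest of the Kdm5c-KO group. Ndufs6, an accessory subunit of complex I that binds zinc, had the lowest p of DM against WT, at 789, 667, 763 and 662 in DM and 887, 669, 956 and 892 in WT. Those groups overlapped in 1 WT library (log2 fold change -0.24 ± 0.12, SE; DESeq2 adjusted p = 0.63).

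Cox7a2, a common subunit of complex IV (chr9:79755361-79759878, mm10, on the chromosome of Kmt2a), had the lowest p of Kmt2a-HET against WT in both regions. In the amygdala it was at 1579, 1294, 1307 and 1255 normalised counts in Kmt2a-HET (mean 1358 ± 148, SD, n = 4) and at 1271, 952, 849 and 820 in WT (973 ± 206). Only WT library 1 reached into the Kmt2a-HET range. The hippocampus gave 1535, 1218, 1217 and 1023 in Kmt2a-HET (1248 ± 212) and 858, 719, 1129 and 962 in WT (917 ± 173). The log2 fold changes were 0.48 ± 0.19 and 0.45 ± 0.15 (SE), with a DESeq2 adjusted p of 1 in both regions and unadjusted p of 0.0109 and 0.0039.

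The regions are from the same mice and so are not separate evidence for Cox7a2. DM animals, which carry the same Kmt2a allele, had 928, 1082, 1271 and 1361 in amygdala libraries 1 to 4 and 955, 978, 1277 and 989 in those of the hippocampus. Their log2 fold changes against WT were 0.25 ± 0.19 and 0.20 ± 0.15 (SE; DESeq2 adjusted p = 0.958 and 0.858). Cox7a2l, the relative that joins complexes III and IV into supercomplexes, had a log2 fold change of -0.21 ± 0.14 (SE; DESeq2 adjusted p = 1) in Kmt2a-HET hippocampus, and -0.32 to -0.11 with 1 library left out.

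Cox6b2 (chr7:4751792-4753094, mm10), a tissue isoform of the subunit at the contact of the complex IV dimer, came nearest to a call. In Kdm5c-KO hippocampus it was at 315, 40.5, 58.4 and 84.3 normalised counts (mean 125 ± 128, SD, n = 4) and in WT at 25.9, 7.67, 61.7 and 39 (33.6 ± 22.7). Kdm5c-KO library 1 stood far above the rest, while libraries 2 and 3 lay within the WT range. The log2 fold change was 1.89 ± 0.58 (SE; DESeq2 adjusted p = 0.103, edgeR adjusted p = 0.389), and 0.87 without that library (DESeq2 adjusted p = 0.963). With offsets for gene length and GC it was 1.75 and past the threshold (DESeq2 adjusted p = 0.097), as it was without WT library 3 (2.36, adjusted p = 0.0289), Kdm5c-KO library 2 (2.19, 0.0232 with DESeq2) or Kdm5c-KO library 3 (2.13, 0.0959). DM hippocampus had 43.1, 71.2, 50.8 and 101 (66.6 ± 25.9), and Kmt2a-HET had 40.6, 54.3, 35.4 and 18.4.

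A single high library also marked the DM group of the amygdala. Cox6b2 was at 176, 28.2, 84.6 and 72.1 normalised counts in DM libraries 1 to 4. WT had 63.3, 31.1, 44.2 and 35.4, Kmt2a-HET had 49.4, 38.4, 31.9 and 45.4, and Kdm5c-KO had 78.4, 40.2, 49.2 and 62.4. The 4 groups overlapped, and DM library 1 was the highest of the 16. The log2 fold change of DM was 1.05 ± 0.41 (SE; DESeq2 adjusted p = 0.4) against WT and 1.13 ± 0.41 (adjusted p = 0.301) against Kmt2a-HET. Without DM library 1 these were 0.50 and 0.57 (DESeq2 adjusted p = 0.999 and 1), and without DM library 2, the lowest, they were 1.35 and 1.43 (DESeq2 adjusted p = 0.0218 and 0.0136). Against Kdm5c-KO the log2 fold change of DM was 0.65 ± 0.40 (SE; DESeq2 unadjusted p = 0.106), and 0.10 without DM library 1.

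The 2 libraries highest in Cox6b2 were those with the most choroid plexus RNA. The 5 choroid plexus markers summed to 4399, 50.4, 538 and 1095 CPM in Kdm5c-KO hippocampus libraries 1 to 4, which is the order of the same libraries in Cox6b2. They summed to 214, 34.6, 1061 and 210 in WT hippocampus, to 43.2, 1061, 45.5 and 1068 in DM hippocampus and to 1719, 18.4, 301 and 9.13 in DM amygdala. In 6 of the 8 groups the library highest in the markers was also the highest in Cox6b2. Cox8b did likewise in 7 of 8 groups, with 89, 2.7, 2.97 and 15.1 normalised counts in Kdm5c-KO hippocampus against 3.37, 0, 11.9 and 6.79 in WT (log2 fold change 2.31 ± 1.03, SE; DESeq2 adjusted p = 0.488). In WT, Kmt2a-HET and Kdm5c-KO amygdala the markers summed to only 8.95 to 41.2 CPM and Cox8b was at 0 to 8.31 normalised counts. A shared highest library says little there. The part of choroid plexus RNA in these differences was not tested.

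**Figure D3:**
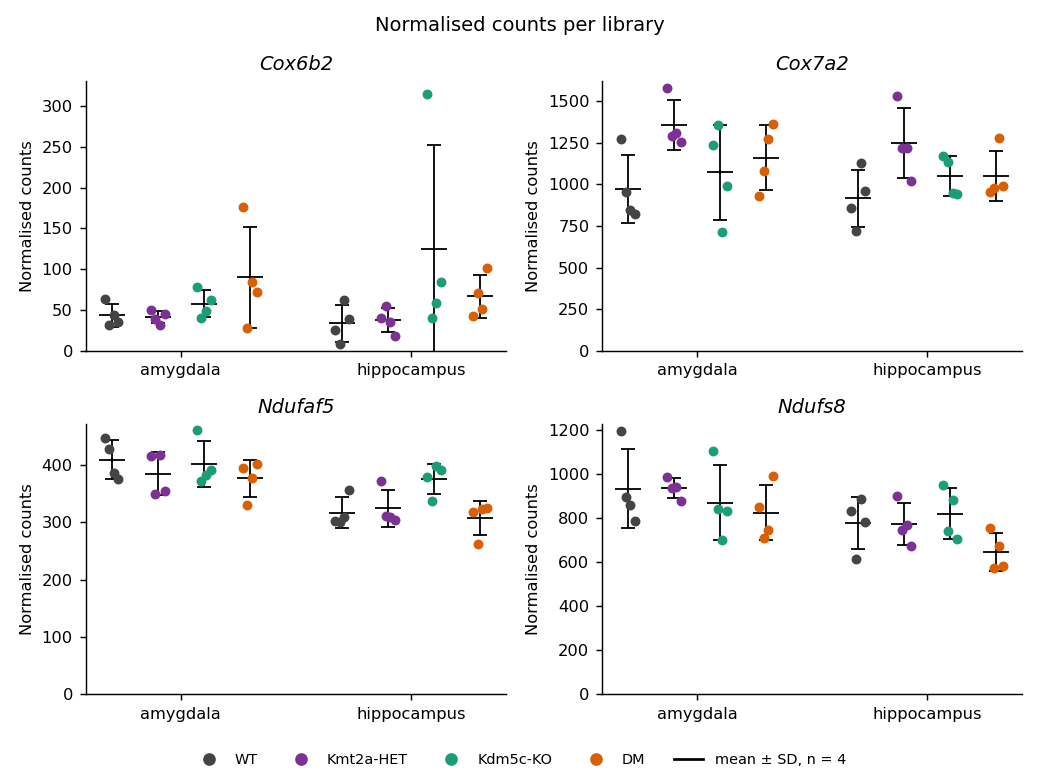
Normalised counts per library of Cox6b2, Cox7a2, Ndufaf5 and Ndufs8 by region and genotype, with the mean and SD of 4 libraries (the SD bar of Cox6b2 in Kdm5c-KO hippocampus is cut at 0). One Kdm5c-KO hippocampus library at 315 stands apart for Cox6b2, Cox7a2 is at 1358 ± 148 in Kmt2a-HET against 973 ± 206 in WT amygdala, and Ndufaf5 does not overlap between Kdm5c-KO and DM hippocampus.

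The remaining genes with the lowest p of a comparison did not pass the test with all libraries. Ndufaf6, an assembly factor of complex I, was at 129, 114, 101 and 127 normalised counts in Kdm5c-KO hippocampus and 100, 68.1, 61.7 and 103 in WT (log2 fold change 0.50 ± 0.20, SE; DESeq2 adjusted p = 0.366). Only 1 Kdm5c-KO library, at 101, lay within the WT range. Ndufa4l2, a paralogue induced by low oxygen, was at 33.5, 40.1, 36.8 and 36.6 in DM amygdala and 83.1, 53.4, 75.5 and 19.1 in WT (-0.65 ± 0.35, SE; DESeq2 adjusted p = 0.774). The DM values sat between the lowest and the second lowest WT library. Without WT library 4 its value was -0.94 and past the threshold (DESeq2 adjusted p = 0.0601), and it was -0.42 without WT library 1. Atp5s was at 160, 156, 191 and 241 in DM amygdala and 245, 238, 224 and 196 in Kmt2a-HET (-0.27 ± 0.14, SE; DESeq2 adjusted p = 0.774). Cox7b2 in Kdm5c-KO amygdala rested on a mean of 3.38 normalised counts and was given no adjusted p by DESeq2. Sdhc in Kdm5c-KO amygdala and Ndufaf1 in DM against Kmt2a-HET hippocampus had log2 fold changes of 0.13 ± 0.10 and 0.19 ± 0.11 (SE; DESeq2 adjusted p = 1 for both). With 1 library left out, the value of Atp5s in DM against Kmt2a-HET ran from -0.42 to -0.20 and that of Sdhc from 0.08 to 0.20.

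Whether a genotype effect differed between the regions was tested as an interaction over all 32 libraries, without the mouse in the fit. For Kmt2a-HET, 0 members were called against 0% of all genes, and 0 were under an unadjusted p of 0.05 (1.78% of all genes). For Kdm5c-KO, 0 were called against 0.0125%, with 1 member (1.09%, against 1.99% of all genes) under an unadjusted p of 0.05, Cox6b2 (difference of log2 fold changes 1.49 ± 0.75, SE; DESeq2 adjusted p = 1). For DM, 0 were called against 0.0125%, and 0 were under an unadjusted p of 0.05 (2.02% of all genes). edgeR called 0 members in each and gave 0 under an unadjusted p of 0.05.

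The last comparison asked where the 2 regions differed. Hippocampus against amygdala, averaged over the 4 genotypes, called 22 of 92 genes tested (23.9%), a share below the 46.3% of all genes that the same test called. Of these, 5 were higher in the hippocampus (22.4% of all genes were) and 17 were lower (23.9% of all genes). The median log2 fold change was -0.04 against -0.01 over all genes. Only complex II was called in most of its members, with Sdha, Sdhb and Sdhc lower and Sdhd at 0.01. Complex I had 3 higher and 9 lower of 44, complex III 0 and 2 of 8, complex IV 2 and 2 of 19, and complex V 0 and 1 of 17.

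These directions depended on the scaling. With the mouse as a block, which the shared animals call for, 8 genes were higher and 20 lower, against 46.9% of all genes called. With offsets for gene length and GC, 20 were higher and 8 lower (46.4% of all genes called), and the medians were 0.04 for the members and 0.04 for all genes. With size factors from the ERCC spike-in, 84 were higher and 0 lower (61.4% of all genes called), as the median of all genes moved to 0.64 and that of the members to 0.60. The ERCC share itself ran from 0.12% to 0.511% of counts over the amygdala libraries and from 0.0503% to 0.295% over those of the hippocampus. Leaving out 1 mouse gave 4 to 10 higher and 9 to 19 lower, with 9 lower genes without DM mouse 4 or without WT mouse 2, 11 without Kdm5c-KO mouse 2, and 10 higher genes without WT mouse 1, while 10333 to 10928 of all genes were called. Without the 4 mice numbered 1, 12 were higher and 14 lower, with 5134 and 5513 of all 23287 genes tested. The fold changes, SE and adjusted p below are from the fit without the mouse as a block. They are relative to the other genes of each library.

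Among the 17 lower genes, Sdhc, the membrane anchor of complex II (chr1:171127165-171150603, mm10), was lower in the hippocampus of all 16 mice. On counts normalised over all 32 libraries it was at 911 to 1301 in the hippocampus (median 1029) and 1033 to 1344 in the amygdala (1180), and the log2 fold change was -0.18 ± 0.05 (SE; DESeq2 adjusted p = 0.000872). Sdhb, which carries the iron-sulphur clusters of complex II, fell by 0.15 ± 0.04 on the log2 scale (DESeq2 adjusted p = 0.00328), and Sdha by 0.10 ± 0.03 (adjusted p = 0.00388), with 14 of 16 mice lower. The ranges of the regions overlapped for Sdhc and Sdha.

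Ndufb5, an accessory subunit of the membrane arm of complex I, was lower in the hippocampus of 15 of 16 mice, at 1164 to 1666 normalised counts (median 1328) against 1414 to 1847 (1551) in the amygdala (log2 fold change -0.21 ± 0.05, SE; DESeq2 adjusted p = 0.000344). Ndufb8, of the same arm, was lower in 14 mice (-0.16 ± 0.06, SE; adjusted p = 0.0144), and Ndufc2 in 13 (-0.18 ± 0.08; adjusted p = 0.06). Ndufc2 lost its call in several alternatives, among them without WT mouse 2 (-0.14, DESeq2 adjusted p = 0.175) and with length and GC offsets (-0.11, adjusted p = 0.122). Uqcrh, the hinge protein of complex III, was lower in 14 mice, with a median of 1410 normalised counts against 1566 (-0.18 ± 0.07, SE; DESeq2 adjusted p = 0.041). Further lower genes were Ndufs6, Ndufs7, Ndufs8, Ndufaf3 and Ndufaf5 of complex I, Uqcrc1 of complex III, and Atp5g3 of complex V, between -0.17 and -0.11.

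The largest fold changes were those of tissue isoforms with few counts. Cox4i2 was at 5.85 to 27.9 normalised counts in the hippocampus (median 16.3) and 10.4 to 41.8 in the amygdala (27.4), and was lower in 14 of 16 mice (log2 fold change -0.65 ± 0.19, SE; DESeq2 adjusted p = 0.00265). Cox6a2, known in the brain from parvalbumin interneurons, was at 16.6 to 95.6 (median 38.9) against 42.3 to 110 (68.2), and was lower in 12 mice (-0.59 ± 0.23; adjusted p = 0.0239). Pvalb itself was at 17.9 to 60.0 CPM in the hippocampus and 12.5 to 50.7 in the amygdala, and 5 striatal markers were at 77.4 to 451 against 200 to 1601 CPM. The part of these cells in the difference was not tested.

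Of the 5 genes higher in the hippocampus, Cox8b had the largest fold change and the least steady one. It was at 0 to 92 normalised counts in the hippocampus (median 6.13) and 0 to 14.2 in the amygdala (4.45), and was higher in 9 of 16 mice (log2 fold change 1.39 ± 0.56, SE; DESeq2 adjusted p = 0.0355). It lost its call when any 1 of 4 mice was left out, among them the Kdm5c-KO mouse with the highest choroid plexus level (0.98, DESeq2 adjusted p = 0.154). Its common paralogue Cox8a was at 3840 to 6980 (median 5903) against 2931 to 6930 (4544), higher in 12 mice (0.27 ± 0.10, SE; adjusted p = 0.0285). The accessory subunits of complex I Ndufa5 and Ndufa10 were higher in 14 and 13 mice (0.22 ± 0.08 and 0.15 ± 0.04, SE; DESeq2 adjusted p = 0.013 and 0.00333), and the assembly factor Ndufaf1 in 11 (0.14 ± 0.05; adjusted p = 0.0207).

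**Figure D4:**
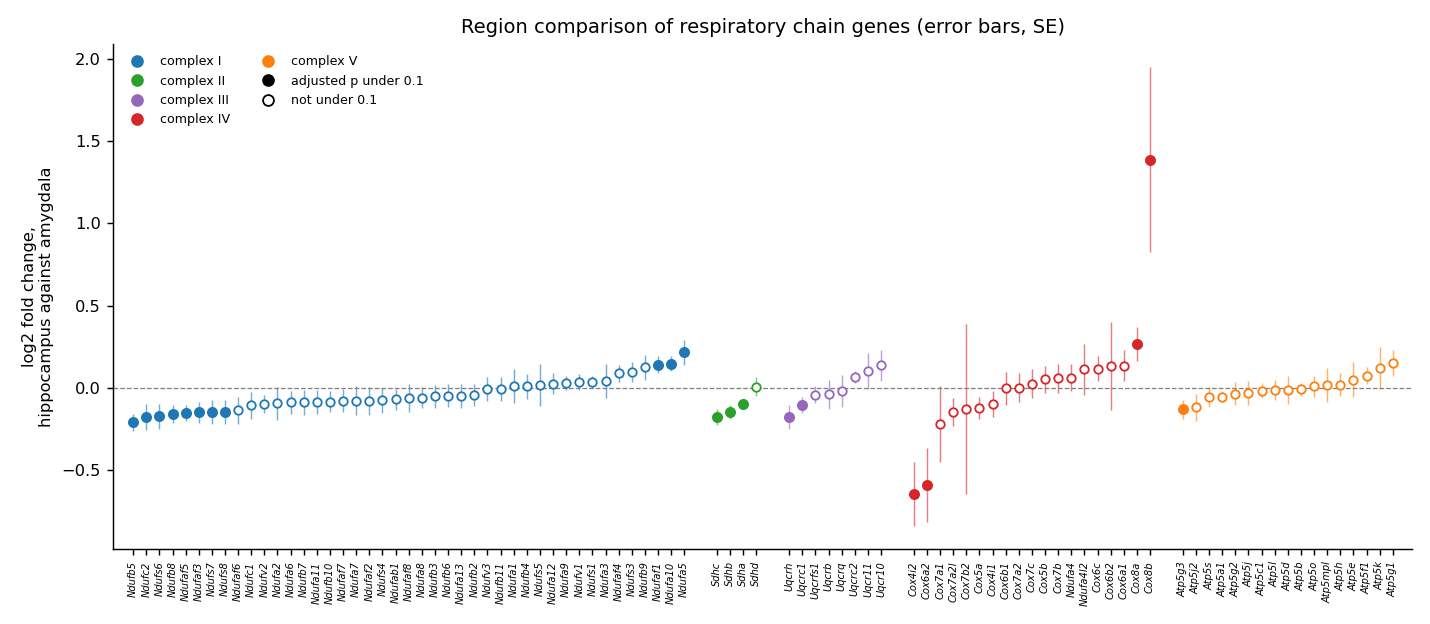
Log2 fold change of hippocampus against amygdala (DESeq2, 32 libraries) with its SE for 91 of the 92 respiratory chain genes tested, grouped by complex and ordered within it, filled where the adjusted p was under 0.1. Complex II has 3 of 4 genes filled and lower, and Cox4i2, Cox6a2 and Cox8b of complex IV lie furthest out.

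Summed over the 93 genes, the level per library was 20368 to 27062 TPM in the amygdala (median 24302) and 19943 to 25991 in the hippocampus (23800), which was 0.767% to 1.1% and 0.723% to 1.02% of the gene counts. Group means in the amygdala were 23717 ± 2614 TPM for WT, 24598 ± 1545 for Kmt2a-HET, 24365 ± 2742 for Kdm5c-KO, and 23871 ± 2033 for DM (SD, n = 4). In the hippocampus they were 23462 ± 2418, 23146 ± 2046, 24702 ± 1100 and 21928 ± 1672. The ranges of the groups overlapped in the amygdala, and in the hippocampus 1 DM library reached into the range of Kdm5c-KO. The mean sum of the hippocampus differed from that of the amygdala by -3.43%, with an SD of 12 percentage points over single mice, and this difference was not tested.

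**Figure D5:**
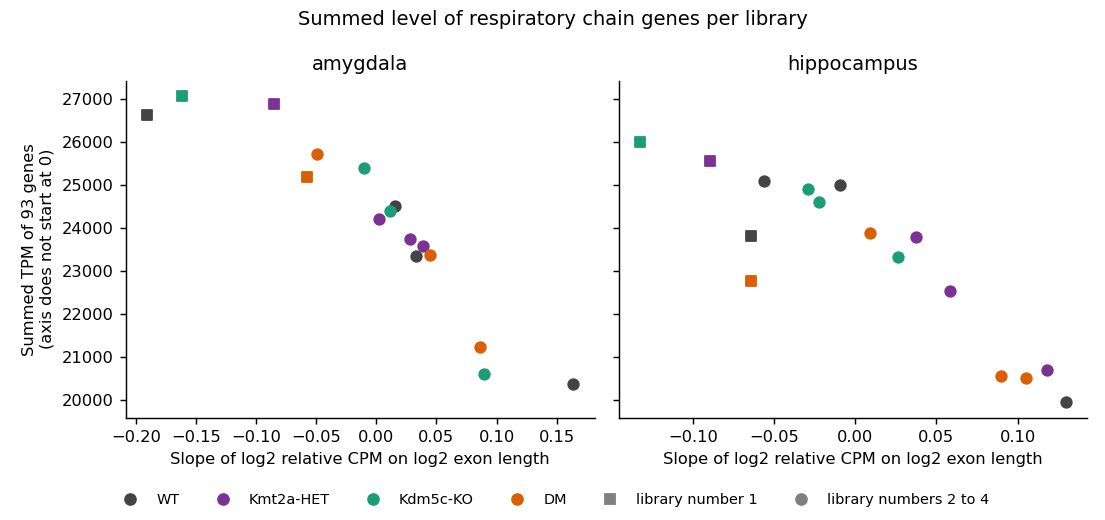
Summed TPM of the 93 genes per library (axis not from 0) against the slope of that library's counts on gene length, with colours for genotype and squares for the libraries numbered 1. The 3 lowest sums in the amygdala, 20368, 20597 and 21218 TPM, belong to the 3 highest slopes, 0.164, 0.0895 and 0.086, and the lowest sum in the hippocampus, 19943, to its highest slope, 0.13.

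Low sums went with high length slopes, less closely among the libraries with negative slopes. The libraries numbered 1 in the amygdala had negative slopes and sums of 25176 to 27062 TPM, whereas the lowest sums belonged to 1 WT, 1 Kdm5c-KO and 1 DM library with the highest slopes. The hippocampus libraries numbered 1 had sums of 23813 (WT), 25555 (Kmt2a-HET), 25991 (Kdm5c-KO) and 22773 TPM (DM) at slopes of -0.0646, -0.0896, -0.133 and -0.0642, so that those of WT and DM were not among the highest sums. The 2 DM hippocampus libraries with slopes of 0.105 and 0.0901 had sums of 20515 and 20550 TPM. The part of length in the group means was not tested.

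The rest of the pathway was counted in the same way. Of 13 subunits encoded in mitochondrial DNA, 14 genes of the tricarboxylic acid cycle, 12 regulators of mitochondrial biogenesis and 37 further assembly factors, 1 gene was called in the 10 comparisons, in which 0% to 1.01% of all genes were called. This was Cox15, which makes the heme A of complex IV and fell by 0.35 ± 0.10 (SE) on the log2 scale in DM against Kmt2a-HET hippocampus (DESeq2 adjusted p = 0.0906), where 0.606% of all genes were called. In DM against Kdm5c-KO hippocampus, where the nuclear genes had a median of -0.17, the 13 mitochondrial subunits had a median log2 fold change of 0.13 with 0 called.

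Between regions, 0 of the 13 mitochondrial subunits were called, with a median of -0.05 and values from -0.19 (mt-Atp8) to 0.08 (mt-Nd5). All 3 nuclear lists are to be read against the 46.3% of all genes called in this test (22.4% higher, 23.9% lower). The assembly factors outside the rule gave 7 higher and 10 lower of 37, among them Ttc19 of complex III at 0.41 ± 0.05 (SE) and the complex IV factor Coa4 at -0.43 ± 0.10 (DESeq2 adjusted p = 2.53e-16 and 0.000121). The tricarboxylic acid cycle gave 6 higher and 2 lower of 14. Those included all 3 subunits of the NAD-dependent isocitrate dehydrogenase, Idh3a, Idh3b and Idh3g, at 0.16, 0.11 and 0.12, while Suclg2, a subunit of succinyl-CoA synthetase, fell by 0.51 on the log2 scale. Of the 12 regulators, 4 were higher (Tfb2m 0.28, Yy1 0.26, Gabpa 0.22 and Pprc1 0.11) and 1 was lower (Tfb1m -0.61). These values are on the default DESeq2 size factors, as those of the members are.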

How the data were processed

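mRNA-seq libraries from amygdala and hippocampus of 16 mice were analysed, with 4 animals in each of 4 genotype groups taken from the sample labels. The authors mapped reads to mm10 with STAR 2.5.3a, kept unique reads and removed duplicates, and name FeatureCounts from Subread 1.5.0. The authors deposited gene and isoform tables of expected counts, of which 7.07% of the gene values were not whole numbers. The estimator and annotation release behind these expected counts are not given in the sources used here. All 64 value columns were matched to a sample.

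Values were rounded and tested with DESeq2 1.42.0 (R 4.3.3, Wald test, default size factors and filters) over all 53715 genes, without the 92 ERCC sequences. All 16 libraries of a region entered a fit with genotype, and region tests used 32 libraries with 8 groups. Calls were at a Benjamini-Hochberg adjusted p under 0.1. Normalised counts are counts divided by size factors, from the 32-library fit for region results. TPM was computed from isoform counts and GENCODE M21 transcript lengths. The scripts were tested on simulated counts. Counting error alone allows a gene with 0 counts up to 0.108 to 0.156 CPM (3 counts per library).

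The 93 genes, the gene lists, the named genes and the tests were chosen with earlier results of these data known. Named were, per genotype comparison without a call, the 2 genes with the lowest unadjusted p, the 6 called genes with the largest region fold change in each direction, the paralogue sets, and the gene with the highest TPM of each complex. Other genes, counted under an unadjusted p of 0.05 or called between regions, were named after their values were seen. Same-numbered libraries of a mouse correlated over 0.1 in 14 of 16 mice across regions (median 0.161, other mice of the genotype -0.0883), as both regions came from 1 animal. The labels state no pairing between genotypes. Same-numbered libraries of different genotypes correlated over 0.1 in 4 of 4 pairs only in Kdm5c-KO against WT amygdala. Those correlations were 0.119 to 0.265, with -0.229 to 0.21 for pairs of other numbers. Alternatives were edgeR 4.0.16, TMM and ERCC size factors, a filter of 10 counts in 4 libraries, an adjusted p under 0.05, the replicate block, offsets for length and GC, the groups compared alone, and each library left out. The values of 1 gene are not reported here, and it is left out of the plot of region fold changes, though it stays in the counts.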

Additional observations from a re-analysis of the deposited data

Results flagged for a closer look

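In 4 of the 44 groups of 4 libraries checked with Dixon's ratio (95% critical value) a library lay far from the other 3, and chance alone gives about 5% of such groups. Cox7a2 was at 1579 normalised counts in Kmt2a-HET amygdala library 1, above 1255 to 1307 in the other libraries of the group (ratio 0.839). Cox6b2 was at 315 in Kdm5c-KO hippocampus library 1, against 40.5 to 84.3 (0.841). Cox7b2 was at 2.37 in Kdm5c-KO amygdala library 1, below the other 3 (0.83), on very few counts. Ndufaf5 was at 263 in DM hippocampus library 2, below 319 to 326 (0.885). The causes were not tested.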

How the results depend on the processing

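With the replicate block and its length and GC variants, calls in the hippocampus appeared that the unblocked fit did not give. In DM against Kdm5c-KO, where the numbers pair no animals (0 of 4 correlations over 0.1), the replicate block gave 3 members (Ndufs8, Atp5d and Atp5g1) and 402 of all genes against 2, and 1 member (Atp5g1) with 339 of all genes once offsets were added. The block with offsets also gave 1 member in Kmt2a-HET against WT (Cox7a2, adjusted p = 0.0294; 249 of all genes against 0) and 1 in DM against Kmt2a-HET (Ndufs8, adjusted p = 0.0643; 412 against 117). In Kdm5c-KO against WT amygdala, where all same-numbered pairs correlated over 0.1, the replicate block left 0 members called, with 507 of all genes against 144. Over all genes, edgeR called 54 to 89 in the 6 comparisons in which DESeq2 called 117 to 211. Offsets alone gave 1 member in Kdm5c-KO against WT hippocampus (Cox6b2, adjusted p = 0.097, with 217 of all genes against 195). Leaving out 1 library gave 0 to 1 member there and in DM against WT (Cox6b2, or Ndufa4l2 without WT library 4, adjusted p = 0.0601) and DM against Kmt2a-HET amygdala. Between regions, 22 members became 14 at an adjusted p under 0.05, 84 with ERCC size factors, 35 with the mouse as a replicate block and offsets, and 14 to 25 with 1 mouse left out. Cox8b (1.11 without DM mouse 4, 0.98 without Kdm5c-KO mouse 1, 1.17 without Kmt2a-HET mouse 2, 1.12 without WT mouse 3) and Ndufc2 (-0.22 to -0.14 with 1 mouse left out) lost their calls in part. ERCC size factors turned the sign of 7 named values, to -0.27 for Ndufaf1 in DM against Kmt2a-HET hippocampus and, between regions, to 0.11 for Cox4i2, 0.19 for Cox6a2, 0.45 for Ndufb5, 0.43 for Sdhc, 0.48 for Uqcrh and 0.42 for Ndufc2. The causes were not tested, apart from the shift of the median of all genes by 0.64 under ERCC scaling. The summed level in the hippocampus differed by -4.89% to -2.24% with 1 mouse left out and the number of genes with split isoforms ran from 17 to 19. Cox7b2 and Cox8b rest on few counts.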
